A study of Rattus norvegicus with 12 samples.

Results

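The genes described here are those of glycolysis and the response to low oxygen, chosen by name. The names are 36: glucose and lactate transporters, glycolytic enzymes, regulators of glycolytic flux, the hypoxia-inducible factor (HIF) alpha subunits and genes known as targets of these factors. Of these, 34 had a row of that name among the 21797 genes of the deposited table. Egln1 and Ca9 were not analysed here under those names. A row named Car9, a gene for which RefSeq lists Ca9 as a synonym, is given beside the 34 and is not counted among them.

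The libraries came from rat implant sites labelled as subcutaneous tissue or muscle, in animals housed in a specific-pathogen-free room. MFN+GelMA implants, the test material, were sampled at 2 weeks (2W) and 4 weeks (4W), and GelMA implants, the control material, at the same 2 times, with 3 libraries in each of the 4 groups. GelMA is a gelatin methacryloyl hydrogel, so all 12 libraries come from tissue with this gel, and in the test groups MFN was added to it. The labels do not spell out MFN, the series title names a microfiber, and the comparison asks how the added component alters gene expression around the implant. Strain, age and sex are not given in the labels. Whether each of the 3 libraries in a group is a separate animal is not stated. The tests therefore read the variation among these libraries alone, and some of it may be technical.

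Glycolysis splits glucose into pyruvate in the cytosol. Glucose enters through SLC2A transporters, is trapped by hexokinase and is cleaved by aldolase, and its products are oxidised by GAPDH and carried on to pyruvate by phosphoglycerate kinase, phosphoglycerate mutase, enolase and pyruvate kinase. Lactate dehydrogenase turns pyruvate into lactate, which leaves through SLC16A transporters. When oxygen is scarce, the prolyl hydroxylases encoded by the Egln genes no longer mark the HIF alpha proteins for destruction, so their control lies largely at the protein and not at the mRNA. HIF1A is best known for raising the genes of glycolysis, and macrophages activated in inflammation are also known to use glycolysis heavily.

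Values are FPKM, fragments scaled to transcript length and to the mapped fragments of the library, so a level is relative to the other transcripts of its library. Summed FPKM ran from 564534 to 739379 over the libraries, with 17.8% to 32.7% from the mitochondrial genome, which limits comparison between libraries. Each library rested on between 11405312 and 14043833 fragments, estimated from the deposited count-like columns, and listed between 11323 and 11773 genes at 1 FPKM or more. Changes are log2 fold changes on FPKM + 1, which understates those of low genes, tested with limma across all 12270 genes that reached 1 FPKM in at least 3 libraries, with p-values adjusted over all of them (Benjamini-Hochberg, called under 0.05). Of the 34 genes 33 passed this filter, and Slc2a3 did not. In spite of the muscle label, Acta1, skeletal muscle actin, was listed at 0.662 FPKM or less in 11 libraries and at 275 FPKM in MFN+GelMA 2W replicate 2. GelMA 4W replicate 2 held the fat hormone gene Adipoq at 2118 FPKM, against 154 FPKM or less in the other 11 libraries. GelMA 2W replicate 3 held the endothelial gene Cdh5 at 27.4 FPKM, against 113.5 and 128 FPKM in the other libraries of its group. Calls that turn on these 3 libraries are given with and without them. Leaving them out takes 1 library from each group except MFN+GelMA 4W.

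At 4 weeks, 17 of the 33 tested genes were higher in MFN+GelMA than in GelMA tissue and 1, Ldhb, was lower. Of all tested genes 24.6% were called, 15.3% higher and 9.27% lower, so the 51.5% of these genes called higher stood above the background share. Their median log2 fold change was 0.83, against 0.05 over all genes tested. The 2 materials did not overlap for 21 of the 33 genes, where 45.6% of all tested genes did not. Among the 18 enzymes, 13 rose, 1 fell and 4 (Hk1, Pfkm, Aldoc and Eno2) were not called, with a median of 1.12. Without the 3 libraries that stood apart 23 of the 33 were called, where 25.6% of all tested genes were. In bulk tissue such as this, fewer cells of a type and less RNA per cell cannot be told apart.

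The transcript of 1 glucose transporter was higher at 4 weeks. Slc2a1, which encodes the widespread glucose transporter GLUT1 (ENSRNOG00000007284, rn6 chr5:138154672-138182897), stood at 69.1, 89.1 and 74.7 FPKM in MFN+GelMA 4W libraries, against 13.7, 9.73 and 21.3 FPKM in GelMA 4W libraries. The groups were far apart, and the log2 fold change was 2.36 (SE 0.42, adjusted p = 0.00192, limma). At 2 weeks the MFN+GelMA libraries had 39.0, 39.0 and 51.0 FPKM and the GelMA libraries 59.6, 13.6 and 24.7 FPKM, so that the groups overlapped, with GelMA replicate 1 above all of MFN+GelMA. Slc2a3, which encodes the neuronal and white-cell transporter GLUT3, was listed at 0.0205 to 0.359 FPKM in the 12 libraries. Its locus in the table is shared with Nanog, Gdf3 and Dppa3, so the division of reads there is uncertain.

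Of the hexokinases, which commit glucose to the cell, Hk3, the form known from white blood cells, moved most. Hk3 had 67.8, 77.8 and 73.0 FPKM in MFN+GelMA 4W libraries, against 20.4, 16.1 and 31.7 FPKM in GelMA 4W libraries (log2 fold change 1.69, SE 0.22, adjusted p = 0.000304, limma). Hk2, the inducible form of muscle and fat, had 41.2, 34.9 and 29.9 FPKM in MFN+GelMA 4W libraries, against 13.7, 22.2 and 18.3 FPKM in GelMA 4W libraries (0.94, SE 0.19, adjusted p = 0.00399). Neither gene's groups overlapped. Hk1, the housekeeping form, had 23.4, 32.7 and 27.5 FPKM in MFN+GelMA 4W libraries, against 19.6, 26.1 and 19.4 FPKM in GelMA 4W libraries, which overlapped (0.35, 95% interval -0.01 to 0.70, adjusted p = 0.142). Hk3 accordingly made up 51.2%, 53.5% and 56.0% of the summed hexokinase FPKM in MFN+GelMA 4W libraries, against 38.0%, 25.0% and 45.7% in GelMA 4W libraries.

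Phosphofructokinase, the main control point of the pathway, is built from liver (Pfkl), muscle (Pfkm) and platelet (Pfkp) subunits. Pfkp had 26.2, 27.9 and 30.1 FPKM in MFN+GelMA 4W libraries, against 11.7, 7.85 and 10.96 FPKM in GelMA 4W libraries (log2 fold change 1.40, SE 0.16, adjusted p = 0.000164, limma). Pfkl had 35.7, 52.1 and 40.6 FPKM in MFN+GelMA 4W libraries, against 11.98, 25.45 and 18.3 FPKM in GelMA 4W libraries (1.20, SE 0.26, adjusted p = 0.00561). Both subunits were separated between the materials. Pfkm had 7.90, 10.1 and 7.65 FPKM in MFN+GelMA 4W libraries, against 10.6, 11.8 and 10.2 FPKM in GelMA 4W libraries. It was lower in MFN+GelMA, narrowly without overlap, and was not called (-0.32, 95% interval -0.86 to 0.22, adjusted p = 0.38). The muscle subunit thus made up 11.3%, 11.2% and 9.76% of the family in MFN+GelMA 4W libraries, against 30.9%, 26.2% and 25.9% in GelMA 4W libraries. At 2 weeks Pfkm was highest, at 21.7 FPKM, in MFN+GelMA replicate 2, the library with muscle transcripts. There Eno3, the muscle enolase, was at 44.0 FPKM, against 5.47 FPKM or less elsewhere.

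**Figure D1:**
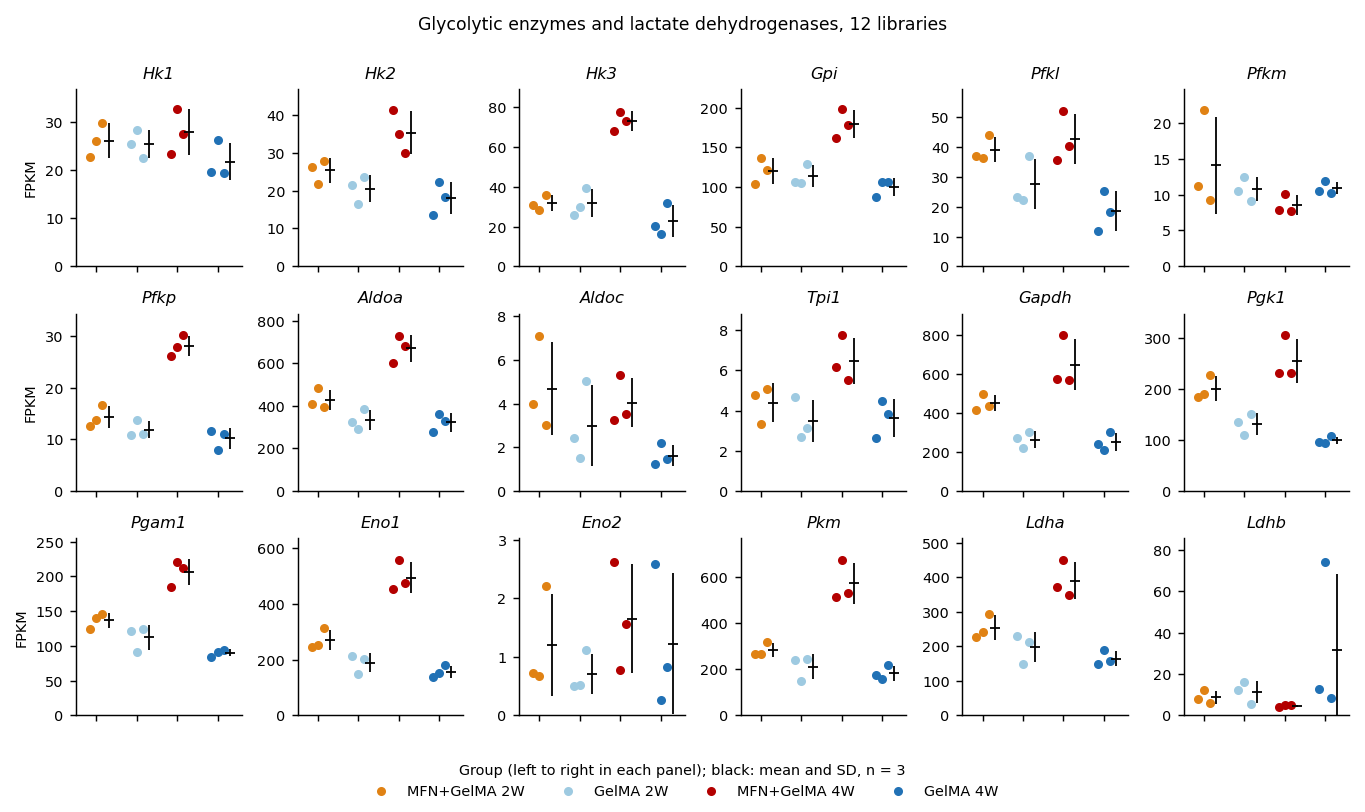
FPKM of the 18 glycolytic enzyme genes, 1 panel a gene in pathway order, with 1 point a library and the mean ± SD of 3 libraries for MFN+GelMA and GelMA at 2 and 4 weeks, each panel on its own linear axis from 0. For the 13 genes that were higher at 4 weeks every MFN+GelMA 4W point lies above every GelMA 4W point, and Ldhb runs the other way with 1 GelMA 4W library at 73.9 FPKM, where the lower end of the SD bar is cut at 0.

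The enzymes at the core of the pathway were among its most abundant transcripts, and each of them was higher in MFN+GelMA tissue at 4 weeks. Aldoa, the main aldolase, averaged 669 ± 65.1 FPKM in MFN+GelMA 4W libraries and 323 ± 44.0 FPKM in GelMA 4W libraries (SD, n = 3 each; log2 fold change 1.05, SE 0.14, adjusted p = 0.000406, limma). Gpi, the isomerase before phosphofructokinase, averaged 179 ± 18 FPKM in MFN+GelMA 4W libraries and 100.2 ± 11.2 FPKM in GelMA 4W libraries (0.83, SE 0.13, adjusted p = 0.00111). Pgam1, phosphoglycerate mutase, averaged 206 ± 18.5 FPKM in MFN+GelMA 4W libraries and 90.3 ± 4.89 FPKM in GelMA 4W libraries (1.18, SE 0.13, adjusted p = 0.000128). The SDs are small beside these differences, and none of the 3 genes overlapped between the materials.

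Gapdh, which is often used as a constant reference in expression assays, had 576, 799 and 568 FPKM in MFN+GelMA 4W libraries, against 240.1, 208 and 301 FPKM in GelMA 4W libraries. Its mean was 2.59-fold higher in MFN+GelMA tissue (log2 fold change 1.37, SE 0.18, adjusted p = 0.000317, limma). Pgk1, which makes the first ATP of the pathway's second phase, had 231, 305 and 230.1 FPKM in MFN+GelMA 4W libraries, against 96.1, 93.2 and 107 FPKM in GelMA 4W libraries (1.35, SE 0.15, adjusted p = 0.000152). For both genes every MFN+GelMA 4W library lay above every GelMA 4W library. Many glycolytic genes, Gapdh above all, have processed pseudogenes in rodents, and how reads shared with such copies were counted is not given in the sources used here.

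Enolase and pyruvate kinase, the last steps before pyruvate, showed the largest differences among the abundant enzymes. Eno1 (ENSRNOG00000017895, rn6 chr5:167288222-167299609) had 454, 558 and 475 FPKM in MFN+GelMA 4W libraries, against 137, 152 and 179.8 FPKM in GelMA 4W libraries (log2 fold change 1.66, SE 0.16, adjusted p = 7.82e-05, limma). Pkm (ENSRNOG00000011329, rn6 chr8:64481171-64502722) had 513, 672 and 529.9 FPKM in MFN+GelMA 4W libraries, against 174, 157 and 219.6 FPKM in GelMA 4W libraries (1.64, SE 0.20, adjusted p = 0.000225). For both genes the lowest MFN+GelMA 4W library was well above the highest GelMA 4W library. Eno2, the neuronal enolase, stayed between 0.269 and 2.62 FPKM in all 12 libraries and was not called (adjusted p = 0.597). Aldoc, the brain aldolase, had 3.24, 5.31 and 3.53 FPKM in MFN+GelMA 4W libraries, against 1.21, 2.18 and 1.47 FPKM in GelMA 4W libraries. These did not overlap but missed the threshold (0.93, adjusted p = 0.0653), which Aldoc passed without the 3 libraries that stood apart (1.08, adjusted p = 0.0095). Over the alternatives Aldoc was called in 6 of 26 fits.

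Tpi1, triosephosphate isomerase, was listed far below its neighbours in the pathway, at 6.18, 7.77 and 5.54 FPKM in MFN+GelMA 4W libraries, against 2.63, 4.496 and 3.82 FPKM in GelMA 4W libraries. Its locus in the table is shared with Spsb2, so its level is uncertain. The call was marginal (log2 fold change 0.70, SE 0.22, adjusted p = 0.0383, limma). It was lost in 5 of the 12 fits that left out 1 library, those without any of the 3 MFN+GelMA 4W libraries or without GelMA 4W replicate 1 or 3, with a highest adjusted p of 0.149.

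The 18 enzymes together summed to 3311, 4187 and 3444 FPKM in MFN+GelMA 4W libraries, against 1351, 1550 and 1617 FPKM in GelMA 4W libraries. At 2 weeks they summed to 2130, 2373 and 2430 FPKM in MFN+GelMA libraries, against 1784, 1406 and 1907 FPKM in GelMA libraries. The sums therefore did not overlap between the materials at either time, and were highest in MFN+GelMA tissue at 4 weeks.

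At the pyruvate branch, the lactate dehydrogenase genes moved apart. Ldha, whose subunit favours making lactate, had 371, 451 and 348 FPKM in MFN+GelMA 4W libraries, against 149, 188 and 157 FPKM in GelMA 4W libraries (log2 fold change 1.24, SE 0.17, adjusted p = 0.000518, limma). Ldhb, whose subunit favours using lactate, had 3.87, 4.87 and 4.88 FPKM in MFN+GelMA 4W libraries, against 12.6, 73.9 and 8.34 FPKM in GelMA 4W libraries (-1.94, SE 0.63, adjusted p = 0.0437). The groups were separate, but the spread of GelMA came from replicate 2, the library with fat transcripts. Without that library alone the Ldhb difference was -1.03 with an adjusted p of 0.0767, and without all 3 libraries that stood apart it was -1.03 with an adjusted p of 0.00695. Over its alternatives the adjusted p of Ldhb reached 0.115, and 13 of 27 lost the call. Ldhb made up 1.03%, 1.07% and 1.38% of the 2 genes' FPKM in MFN+GelMA 4W libraries, against 7.81%, 28.2% and 5.06% in GelMA 4W libraries.

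Slc16a3 gave the largest difference of the 33 genes. It encodes MCT4, the transporter known for exporting lactate from strongly glycolytic cells (ENSRNOG00000036677, rn6 chr10:110138585-110148358). It had 31.3, 60.7 and 46.9 FPKM in MFN+GelMA 4W libraries, against 1.70, 1.14 and 6.15 FPKM in GelMA 4W libraries. The mean was 15.5-fold higher in MFN+GelMA tissue (log2 fold change 3.73, SE 0.42, adjusted p = 0.000163, limma). At 2 weeks it had 16.3, 25.8 and 27.7 FPKM in MFN+GelMA libraries, against 9.06, 5.21 and 10.5 FPKM in GelMA libraries, again without overlap but short of the threshold (1.41, SE 0.42, adjusted p = 0.159). Slc16a1, which encodes the widespread transporter MCT1, had 17.3, 19.7 and 16.9 FPKM in MFN+GelMA 4W libraries, against 18.6, 22.8 and 17.1 FPKM in GelMA 4W libraries. These overlapped (-0.11, 95% interval -0.56 to 0.35, adjusted p = 0.756). Slc16a3 made up 64.4%, 75.5% and 73.5% of the pair's FPKM in MFN+GelMA 4W libraries, against 8.37%, 4.74% and 26.4% in GelMA 4W libraries. At 2 weeks the share was 41.7%, 55.8% and 45.0% in MFN+GelMA libraries, against 27.7%, 25.0% and 29.3% in GelMA libraries.

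**Figure D2:**
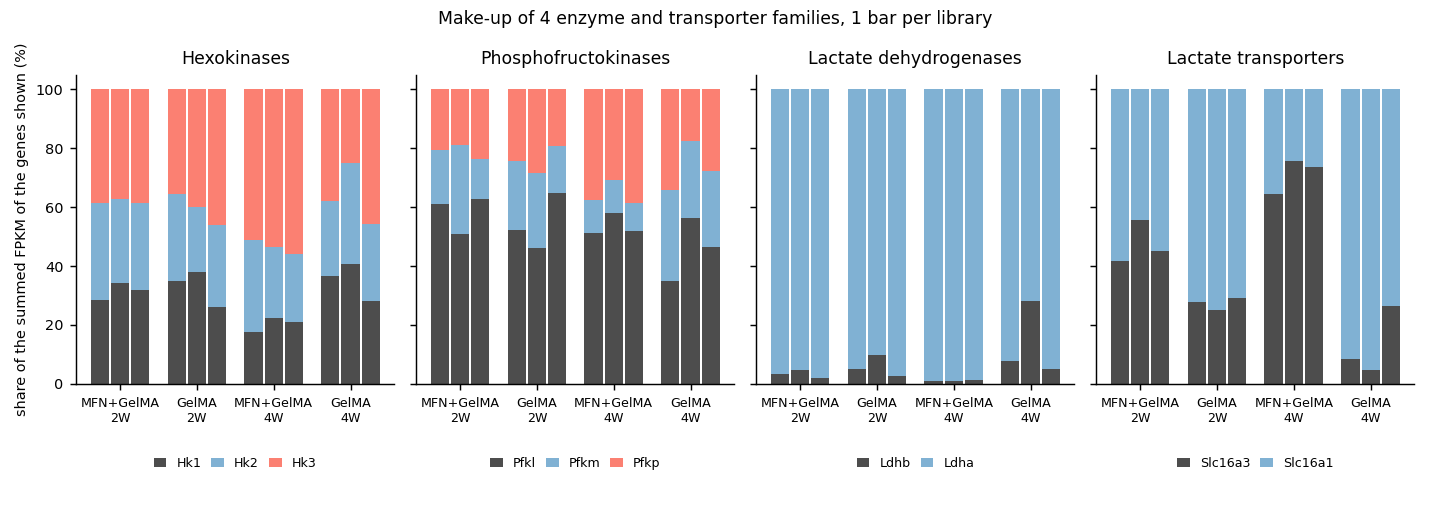
Shares of the summed FPKM held by each gene of the hexokinase, phosphofructokinase, lactate dehydrogenase and lactate transporter families, as stacked bars in percent from 0 to 100, 1 bar a library, grouped by material and time. At 4 weeks Slc16a3 holds 64.4% to 75.5% of its pair in MFN+GelMA libraries, against 4.74% to 26.4% in GelMA libraries, and Pfkm and Ldhb take smaller shares in MFN+GelMA than in GelMA libraries.

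The regulators that set the flow into and out of glycolysis were not called at 4 weeks with all libraries. Pdk1, a kinase that keeps pyruvate out of the mitochondrial cycle, had 24.7, 30.3 and 21.7 FPKM in MFN+GelMA 4W libraries, against 16.6, 31.8 and 12.6 FPKM in GelMA 4W libraries (log2 fold change 0.41, 95% interval -0.15 to 0.96, adjusted p = 0.276, limma). Pfkfb3, which makes the activator of phosphofructokinase, had 39.6, 36.8 and 33.5 FPKM in MFN+GelMA 4W libraries, against 24.4, 59.4 and 26.4 FPKM in GelMA 4W libraries (0.11, 95% interval -0.49 to 0.71, adjusted p = 0.806). For both genes the GelMA library with fat transcripts was the highest of the 6, and the other 2 GelMA libraries lay below all of MFN+GelMA. Without the 3 libraries that stood apart, Pdk1 was higher by 0.77 (adjusted p = 0.00956) and Pfkfb3 by 0.51 (adjusted p = 0.0326) in MFN+GelMA tissue. That fit leaves out the highest GelMA 4W library of both genes. Over the alternatives Pdk1 was called in 3 of 26 fits and Pfkfb3 in 2 of 26. Pdk3, a kinase of the same family, ranged from 11.01 to 14.9 FPKM over all 12 libraries, with a difference at 4 weeks of -0.10 (95% interval -0.38 to 0.19). Pfkfb4, the relative of Pfkfb3, ranged from 0.440 to 4.32 FPKM and differed by 0.33 (95% interval -0.37 to 1.03).

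The HIF alpha subunits did not follow the enzymes. Hif1a (ENSRNOG00000008292, rn6 chr6:96810906-96856052) had 41.0, 37.6 and 36.7 FPKM in MFN+GelMA 4W libraries, against 37.0, 34.9 and 35.9 FPKM in GelMA 4W libraries, which overlapped (log2 fold change 0.09, 95% interval -0.35 to 0.53, adjusted p = 0.782, limma). At 2 weeks it had 63.8, 59.0 and 108 FPKM in MFN+GelMA libraries, against 47.4, 37.1 and 32.1 FPKM in GelMA libraries. That difference was without overlap but just short of the threshold (0.93, SE 0.20, adjusted p = 0.0683). It passed without MFN+GelMA 2W replicate 2 (1.09, adjusted p = 0.0359) and after quantile normalization (0.94, adjusted p = 0.048), and its adjusted p over all alternatives ran from 0.0359 to 0.208. Within MFN+GelMA tissue Hif1a fell between the times, by 0.93 at 4 against 2 weeks (SE 0.20, adjusted p = 0.00863).

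Epas1 encodes HIF-2 alpha, known from endothelial cells and macrophages. It had 35.9, 45.7 and 48.0 FPKM in MFN+GelMA 4W libraries, against 77.7, 111 and 63.7 FPKM in GelMA 4W libraries. The groups did not overlap, but the difference was not called (-0.92, 95% interval -1.82 to -0.02, adjusted p = 0.125, limma). At 2 weeks it had 84.8, 74.8 and 98.9 FPKM in MFN+GelMA libraries, against 74.3, 82.2 and 21.3 FPKM in GelMA libraries. The low GelMA value was that of replicate 3, the library with low endothelial transcripts, and without the 3 libraries that stood apart Epas1 was lower in MFN+GelMA tissue at 4 weeks (-0.70, adjusted p = 0.0097). Over the alternatives Epas1 was called at 4 weeks in 3 of 26 fits. The summed FPKM of 7 endothelial markers was 116 to 143 in MFN+GelMA 4W libraries, against 211 to 316 in GelMA 4W libraries, and 4 of the 7 fell, where 9.27% of all tested genes did. The part of this in the Epas1 values was not tested.

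Of the 6 other hypoxia targets with a row, 2 rose at 4 weeks (33.3%), where 15.3% of all tested genes did. Their median was 0.56, against 0.05 over all genes tested. The materials did not overlap for 2 of the 6, where 45.6% of all tested genes did not. Ndrg1, a stress-response gene (ENSRNOG00000007393, rn6 chr7:107734298-107775706), had 369, 331 and 338 FPKM in MFN+GelMA 4W libraries, against 144, 108 and 205 FPKM in GelMA 4W libraries (log2 fold change 1.23, SE 0.23, adjusted p = 0.00248, limma). Egln3, which encodes the oxygen-sensing hydroxylase PHD3, had 7.25, 7.94 and 4.19 FPKM in MFN+GelMA 4W libraries, against 1.63, 2.31 and 2.37 FPKM in GelMA 4W libraries (1.24, SE 0.27, adjusted p = 0.00587). Both were separated between the materials. Bnip3, which directs removal of mitochondria, had 60.7, 64.3 and 46.7 FPKM in MFN+GelMA 4W libraries, against 23.1, 86.3 and 27.9 FPKM in GelMA 4W libraries (0.55, 95% interval -0.27 to 1.37, adjusted p = 0.314). The library with fat transcripts was again the highest, and Bnip3 was called without the 3 libraries that stood apart (1.13, adjusted p = 0.00118). Over the alternatives Bnip3 was called in 3 of 26 fits.

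Its relative Bnip3l had 85.9, 75.1 and 82.1 FPKM in MFN+GelMA 4W libraries, against 67.4, 81.5 and 68.5 FPKM in GelMA 4W libraries (log2 fold change 0.16, 95% interval -0.07 to 0.39, adjusted p = 0.285, limma). Adm, the vessel-dilating peptide adrenomedullin, had 17.4, 15.7 and 26.5 FPKM in MFN+GelMA 4W libraries, against 16.3, 28.6 and 22.9 FPKM in GelMA 4W libraries (-0.18, 95% interval -0.74 to 0.39, adjusted p = 0.663). The groups overlapped for both. Ankrd37 had 4.61, 5.18 and 5.65 FPKM in MFN+GelMA 4W libraries, against 4.83, 1.66 and 3.57 FPKM in GelMA 4W libraries (0.57, adjusted p = 0.265). Car9, the row that RefSeq ties to the acid-handling carbonic anhydrase Ca9, had 3.83, 7.48 and 2.64 FPKM in MFN+GelMA 4W libraries, against 0.0672, 0.258 and 0.615 FPKM in GelMA 4W libraries. It was higher in MFN+GelMA tissue (2.03, SE 0.30, adjusted p = 0.000675), from low levels. The 3 MFN+GelMA 4W libraries alone suffice for the filter of 1 FPKM in 3 libraries, so no support is drawn from the test of Car9. The log2 fold change of Car9 ran from 1.7 to 3.63 over the alternatives.

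**Figure D3:**
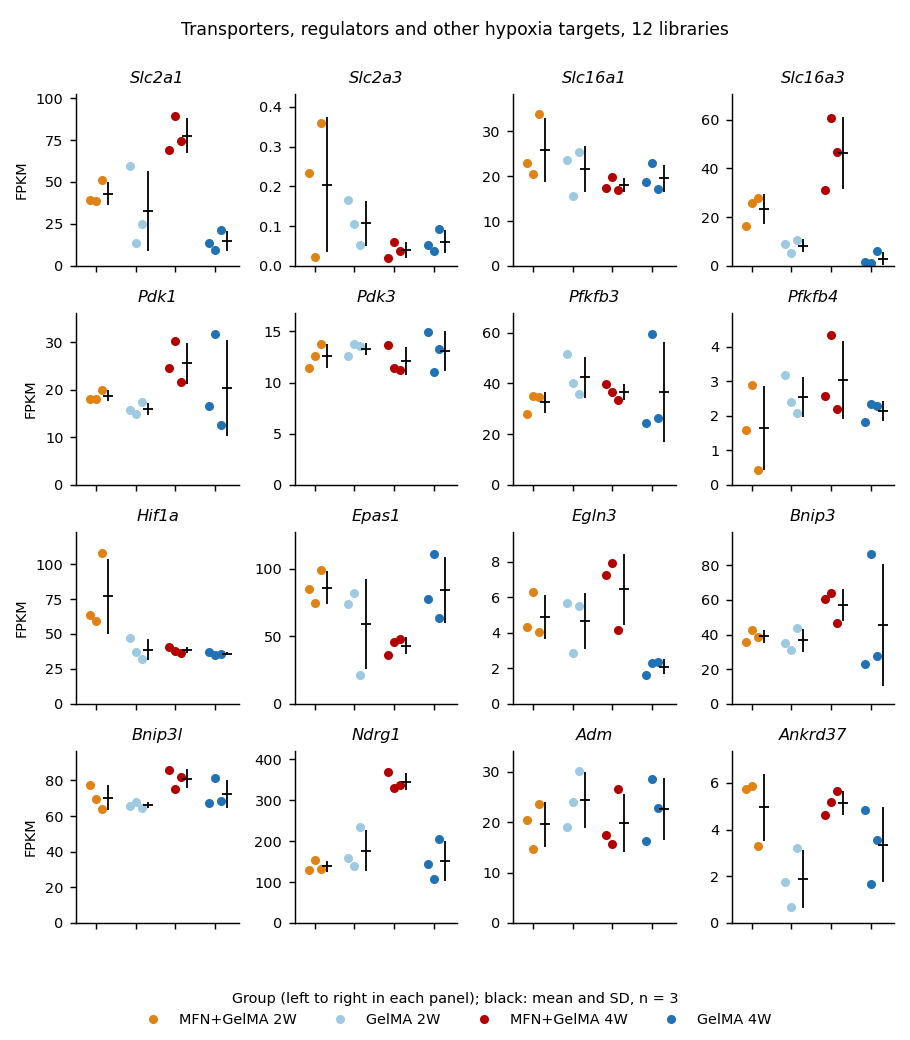
FPKM of the 16 genes that are not glycolytic enzymes, 1 panel a gene, with 1 point a library and the mean ± SD of 3 libraries for MFN+GelMA and GelMA at 2 and 4 weeks, each panel on its own linear axis from 0. Slc2a1, Slc16a3, Egln3 and Ndrg1 are separated by material at 4 weeks, Hif1a is highest in MFN+GelMA at 2 weeks, and Pdk1, Pfkfb3 and Bnip3 are highest at 4 weeks in GelMA replicate 2.

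HIF proteins bind the core letters ACGTG or GCGTG of a hypoxia response element. RefSeq promoters (GRCr8, from 250 bases before to 50 after each gene's start) were matched by symbol for 30 of the 34 genes, which have 34 promoters because 3 genes have several starts. At least 1 of the 2 cores, on either strand, was found in 67.6% of these promoters, against 60.5% of the promoters of all tested genes and 41.6% of all promoters of that length. ACGTG alone was in 55.9% of them, against 24.7% of promoters of tested genes and 19.3% of all promoters. Split by the result at 4 weeks, 61.1% of promoters of genes that rose at 4 weeks held a core, and 73.3% of those of genes not called. For ACGTG alone the shares were 44.4% for genes that rose and 73.3% for genes not called. The median share of G and C letters was 62.0% and 69.3% in these 2 sets, against 60.7% in promoters of tested genes. These differences were not tested. The palindrome CACGTG counts as a match on each strand.

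The 3 promoters below are printed because they set these matches beside the responses at 4 weeks. Ldha was called and has several cores, Bnip3 was not called with all libraries and has several cores, and Slc16a3 had the largest fold and has no core. Each is the stretch of 250 bases before the start, 5′ to 3′ on the gene's strand, with the letters of each core in capitals. Ldha (RefSeq GRCr8 chr1:106507842-106508091, plus strand) holds 4 matches there, Bnip3 (chr1:203154963-203155212, minus strand) holds 4, and Slc16a3 (chr10:106712078-106712327, plus strand) holds 0.
Ldha: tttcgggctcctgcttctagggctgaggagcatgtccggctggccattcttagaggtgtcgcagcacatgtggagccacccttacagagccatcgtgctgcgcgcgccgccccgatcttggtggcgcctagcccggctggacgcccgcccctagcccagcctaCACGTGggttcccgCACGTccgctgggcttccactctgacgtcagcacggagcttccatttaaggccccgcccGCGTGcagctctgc
Bnip3: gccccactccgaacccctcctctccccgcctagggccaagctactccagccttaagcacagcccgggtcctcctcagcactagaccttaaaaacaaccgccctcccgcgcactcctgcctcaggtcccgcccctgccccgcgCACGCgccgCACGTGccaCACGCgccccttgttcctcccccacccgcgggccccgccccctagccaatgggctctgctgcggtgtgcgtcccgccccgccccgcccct
Slc16a3: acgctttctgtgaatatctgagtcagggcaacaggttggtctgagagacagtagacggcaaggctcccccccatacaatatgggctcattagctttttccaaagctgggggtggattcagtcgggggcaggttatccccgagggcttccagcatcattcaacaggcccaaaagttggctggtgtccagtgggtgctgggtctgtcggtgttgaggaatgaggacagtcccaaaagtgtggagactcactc
In Ldha 1 palindrome with a further ACGTG on the minus strand lies before a GCGTG near the start, and in Bnip3 1 palindrome lies between 2 GCGTG cores on the minus strand. A match is a description of letters, and the absence of 1 in the Slc16a3 stretch says only that these letters are not in this window.

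Other genes of the same pathways were taken from lists by name. Of 30 further hypoxia targets tested, 17 rose and 1, Edn1, fell at 4 weeks, with a median log2 fold change of 0.70. Ak4, a mitochondrial adenylate kinase, had 21.1, 19.9 and 17.1 FPKM in MFN+GelMA 4W libraries, against 2.15, 2.19 and 3.39 FPKM in GelMA 4W libraries (2.52, SE 0.22, adjusted p = 5.5e-05, limma). Stc2, the secreted stanniocalcin 2 gene, rose by 1.60 (adjusted p = 8.51e-05) and Ero1a, an oxidase of protein folding, by 1.47 (adjusted p = 0.000239). Car12, another carbonic anhydrase, was listed at 1.48 to 3.03 FPKM in MFN+GelMA 4W libraries, against 0 to 0.0263 FPKM in GelMA 4W libraries. These levels are near the floor, and the 3 MFN+GelMA 4W libraries alone suffice for the filter of 1 FPKM in 3 libraries. Car12 is counted among the 17, but no support is drawn from its test. Its log2 fold change ran from 1.59 to 4.48 over the alternatives. Vegfa, the angiogenic factor that is a classic HIF target, was not called (-0.56, 95% interval -1.11 to -0.00, adjusted p = 0.131). Thus 33.3% of the 6 named targets, 56.7% of the 30 further targets and 72.2% of the 18 enzymes were called higher, against 15.3% of all genes, and the differences between these lists were not tested.

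At 4 weeks 15.3% of all tested genes were called higher and 9.27% lower. Of 15 further glycolysis and sugar enzymes tested, 5 rose (33.3%) and 1 fell (6.67%), with a median of 0.28. The risers included Tkt, transketolase (log2 fold change 0.95, SE 0.21, adjusted p = 0.00676, limma), and Taldo1, transaldolase (0.57, SE 0.11, adjusted p = 0.00264). Tkt had 280.2, 307 and 300.1 FPKM in MFN+GelMA 4W libraries, against 112, 234 and 136 FPKM in GelMA 4W libraries, without overlap. Bpgm, which makes the oxygen-affinity regulator of red cells, fell by 0.61 (adjusted p = 0.0183), a call lost without MFN+GelMA 4W replicate 2 (adjusted p = 0.0708) or GelMA 4W replicate 1 (adjusted p = 0.0799). Over its alternatives its highest adjusted p was the last of these. Of 3 red blood cell markers 2 also fell, with sums of 96.95 to 151.5 FPKM in MFN+GelMA 4W libraries, against 338 to 733 FPKM in GelMA 4W libraries, and their part in Bpgm was not tested. Of 11 genes of pyruvate entry into the mitochondria, 0 were called by limma, with a median of 0.08. At an unadjusted p under 0.05 there was 1, beside 4575 of all 12270 genes. Of 12 HIF pathway regulators 1 rose (8.33%), a share below that of all tested genes. It was Arnt2, at 2.09, 2.11 and 2.08 FPKM in MFN+GelMA 4W libraries, against 0.394, 0.556 and 1.07 FPKM in GelMA 4W libraries (0.91, adjusted p = 0.00463), from low levels. For Arnt2 too, the 3 MFN+GelMA 4W libraries alone suffice for the filter of 1 FPKM in 3 libraries, so no support is drawn from its test.

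At 2 weeks the MFN+GelMA minus GelMA difference was above 0 for 27 of the 33 genes but none passed the test. In limma 0 of the 33 genes were called, where 0.497% of all tested genes were, and 9 of the 33 had an unadjusted p under 0.05, beside 1742 of all 12270 genes. The median log2 fold change was 0.28 (0.31 for the enzymes, 17 of 18 above 0), against 0.01 over all genes. The materials did not overlap for 11 genes, where 18.2% of all tested genes did not. Gapdh came nearest among the enzymes, with 416, 497 and 438 FPKM in MFN+GelMA 2W libraries, against 272, 218 and 300.2 FPKM in GelMA 2W libraries (0.78, SE 0.18, adjusted p = 0.0772). Pgk1 had 183, 189.6 and 228 FPKM in MFN+GelMA 2W libraries, against 135, 109 and 151 FPKM in GelMA 2W libraries (0.61, SE 0.15, adjusted p = 0.0946). Neither overlapped. Ankrd37 had 5.73, 5.85 and 3.30 FPKM in MFN+GelMA 2W libraries, against 1.77, 0.690 and 3.20 FPKM in GelMA 2W libraries (1.11, SE 0.35, adjusted p = 0.177). It was the single gene called without the 3 libraries that stood apart (1.31, adjusted p = 0.0465), where 3.1% of all tested genes were, with its adjusted p ranging from 0.0465 to 0.395 over the alternatives.

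Beyond the 33 genes, Ddit4, a HIF target that restrains growth signalling, was called higher at 2 weeks (log2 fold change 1.83, SE 0.19, adjusted p = 0.00297, limma). It had 38.0, 34.1 and 54.0 FPKM in MFN+GelMA 2W libraries, against 10.9, 13.8 and 8.57 FPKM in GelMA 2W libraries. Cited2, which competes with HIF alpha for its coactivator, was called lower at 2 weeks (-0.76, adjusted p = 0.0189). It had 25.9, 24.4 and 23.9 FPKM in MFN+GelMA 2W libraries, against 44.9, 48.5 and 35.1 FPKM in GelMA 2W libraries. Each was the 1 gene of its list called at that time, of 30 further hypoxia targets and 12 HIF pathway regulators tested. Of all tested genes 0.171% were called higher and 0.326% lower at 2 weeks. The groups did not overlap for either gene, where 18.2% of all tested genes did not. These 2 calls were not followed over the alternatives.

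Within MFN+GelMA tissue, 9 of the 33 genes were higher at 4 than at 2 weeks and 1, Hif1a, was lower, where 19.3% of all tested genes were called, 11.2% higher and 8.11% lower. The times did not overlap for 21 of the 33, where 37.7% of all tested genes did not. The risers were 8 enzymes (Hk3, Gpi, Pfkp, Aldoa, Pgam1, Eno1, Pkm and Ldha) and Ndrg1. Ndrg1 had 369, 331 and 338 FPKM at 4 weeks, against 130.3, 154 and 132.5 FPKM at 2 weeks (log2 fold change 1.31, SE 0.23, adjusted p = 0.00254, limma). Hk3 had 67.8, 77.8 and 73.0 FPKM at 4 weeks, against 30.9, 28.2 and 36.04 FPKM at 2 weeks (1.18, SE 0.22, adjusted p = 0.00358). The times did not overlap for either. Among the weaker calls, Gpi (0.58, adjusted p = 0.0125) was lost without MFN+GelMA 2W replicate 1 (adjusted p = 0.0517). Ldha (0.62, adjusted p = 0.0303) was lost without MFN+GelMA 2W replicate 1 or 2 or MFN+GelMA 4W replicate 1 or 2 (adjusted p up to 0.105). Without the 3 libraries that stood apart 13 genes were called, where 21.2% of all tested genes were. Ldha was then lost (0.58, adjusted p = 0.0646). Gapdh (0.58, adjusted p = 0.0466), Pfkfb4 (1.03, adjusted p = 0.0402) and Bnip3 (0.60, adjusted p = 0.0231) were gained as higher at 4 weeks and Epas1 as lower (-1.08, adjusted p = 0.00166). Each gained gene was called in only 2 or 3 of its alternative fits. Cell type markers moved between these times too: 6 of 7 giant cell and osteoclast markers rose (median 2.32), 4 of 9 macrophage markers rose and 1 fell, 4 of 8 smooth muscle and pericyte markers fell, as did 3 of 7 endothelial and 2 of 4 neutrophil markers. Their part in these values was not tested.

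Within GelMA tissue 0 of the 33 genes were called between the times by limma, where 2.23% of all tested genes were (0.497% higher and 1.74% lower). At an unadjusted p under 0.05 there were 6, beside 2233 of all 12270 genes. Their median was -0.18. Slc16a3 had 1.70, 1.14 and 6.15 FPKM at 4 weeks, against 9.06, 5.21 and 10.5 FPKM at 2 weeks, which overlapped through GelMA 4W replicate 3, and without that library the fall was called (-1.90, adjusted p = 0.0254). The adjusted p of that change ran up to 0.383 over the alternatives. Pfkfb3 was called without the 3 libraries that stood apart (-0.82, adjusted p = 0.0294), where 3.33% of all tested genes were.

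The difference between the 2 times in the material effect was tested as an interaction, and 11 of the 33 genes passed it with all libraries, each with a larger effect at 4 weeks, where 14.1% of all tested genes passed (9.1% with a larger value at 4 weeks and 4.98% with a smaller). They were 9 enzymes, Slc16a3 and Ndrg1. Slc16a3 gave the largest value (2.32, SE 0.60, adjusted p = 0.0262, limma), followed by Hk3 (1.68, SE 0.31, adjusted p = 0.00754) and Ndrg1 (1.54, SE 0.32, adjusted p = 0.0112). Gapdh, called at 4 weeks and not at 2 weeks, did not pass (0.59, SE 0.25, adjusted p = 0.142). The count fell to 6 without MFN+GelMA 2W replicate 1, MFN+GelMA 4W replicate 2 or GelMA 4W replicate 1, and to 7 without MFN+GelMA 4W replicate 3 or GelMA 2W replicate 1. Calls over all genes fell in these fits too. In the same order they were 1238, 1411, 920, 1088 and 1286, of 12174 to 12217 tested, against 1727 of 12270 with all libraries. Hk3, Pfkp, Pgam1, Eno1, Pkm and Ndrg1 passed whichever single library was left out. Slc16a3 was lost in 6 of the 12 such fits, with an adjusted p of up to 0.0693. At 4 weeks the library left out was MFN+GelMA replicate 2, MFN+GelMA replicate 3 or GelMA replicate 1, and at 2 weeks it was MFN+GelMA replicate 1, GelMA replicate 1 or GelMA replicate 3. Without the 3 libraries that stood apart 10 genes passed, where 12% of all tested genes did. Slc16a3 (1.88, adjusted p = 0.0878), Pkm (0.92, adjusted p = 0.0913), Ldha (0.86, adjusted p = 0.0863) and Pgk1 (0.56, adjusted p = 0.164) were then lost. Pfkfb3 (1.04, adjusted p = 0.0211) and Bnip3 (0.97, adjusted p = 0.0304) were gained, as was Epas1 with the opposite sign (-0.93, adjusted p = 0.0329). Each gained gene passed in only 2 or 3 of 25 alternative fits.

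**Figure D4:**
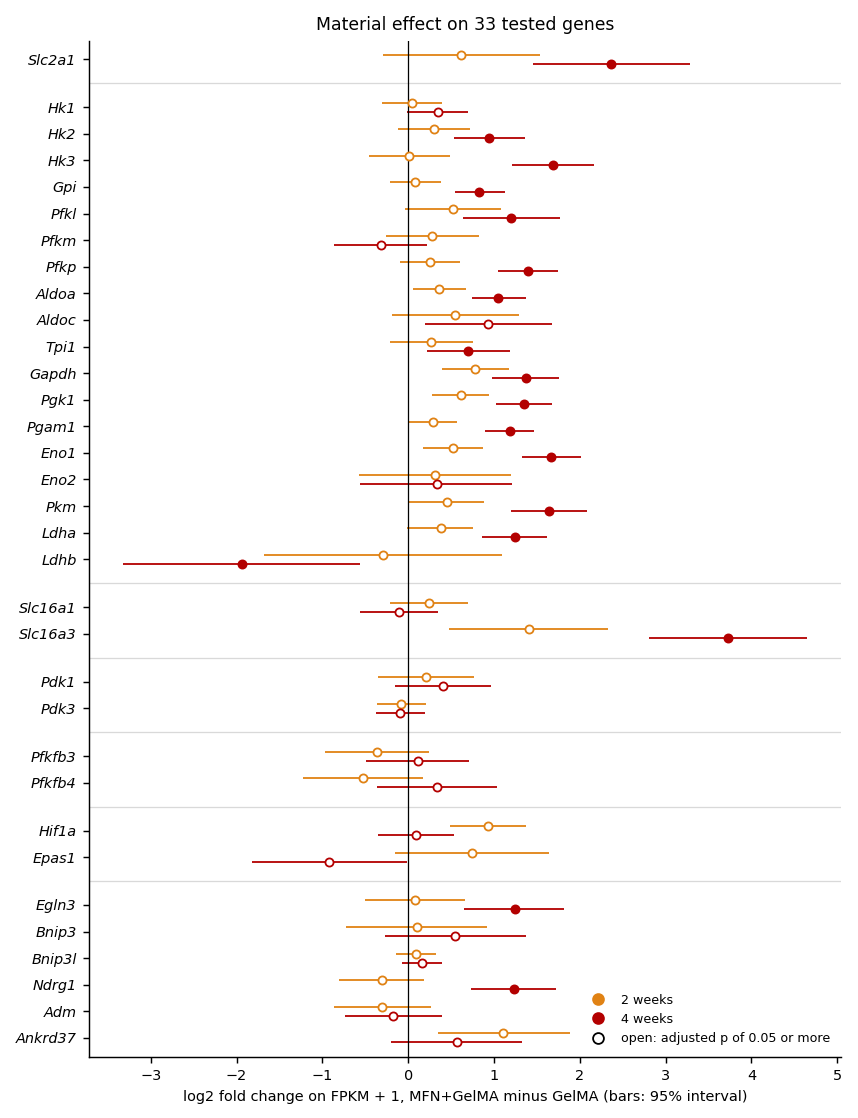
Log2 fold change on FPKM + 1, MFN+GelMA minus GelMA, of the 33 tested genes in 7 role groups, at 2 weeks (orange) and 4 weeks (red), with 95% intervals from limma; filled points have an adjusted p under 0.05. At 4 weeks 17 filled points lie right of 0 and 1, Ldhb, left of it, and at 2 weeks no point is filled.

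Markers of several cell types moved with the enzymes at 4 weeks, where 15.3% of all tested genes were called higher and 9.27% lower. Of 9 macrophage markers 6 rose, with sums of 3579 to 3845 FPKM in MFN+GelMA 4W libraries, against 1771 to 2642 FPKM in GelMA 4W libraries. All 7 tested markers of giant cells and osteoclasts, the fused macrophage types, rose, with sums of 1670.0 to 2265 FPKM in MFN+GelMA 4W libraries, against 284 to 783 FPKM in GelMA 4W libraries. Of 6 cell cycle genes 5 rose, with sums of 46.4 to 64.5 FPKM in MFN+GelMA 4W libraries, against 25.4 to 31.1 FPKM in GelMA 4W libraries. Of 8 smooth muscle and pericyte markers 5 fell, with sums of 171 to 266 FPKM in MFN+GelMA 4W libraries, against 385 to 489 FPKM in GelMA 4W libraries. The part of these markers in the enzyme values was not tested.

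In the other marker lists calls at 4 weeks went both ways or were absent. Of all tested genes 45.6% did not overlap at 4 weeks, and 4575 of 12270 had an unadjusted p under 0.05. Of 9 white adipocyte markers 1 rose and 1 fell, with a median log2 fold change of -2.49, 7 without overlap and 6 at an unadjusted p under 0.05. Their sums were 6057 to 7384 FPKM in MFN+GelMA 4W libraries, against 2641 to 14020.0 FPKM in GelMA 4W libraries. Only 2 of the 9 had a log2 fold change above 0, the highest at 1.82, so these sums do not stand for most of the list. Of 4 neutrophil markers 0 were called (also 0 at an unadjusted p under 0.05, limma), with sums over 7 genes of 6.01 to 8.45 FPKM in MFN+GelMA 4W libraries, against 5.21 to 18.35 FPKM in GelMA 4W libraries. Of 3 skeletal muscle markers 0 were called (also 0 unadjusted), with sums over 10 genes of 11.4 to 19.7 FPKM in MFN+GelMA 4W libraries, against 22.2 to 28.0 FPKM in GelMA 4W libraries. Of 6 fibroblast markers 2 rose and 2 fell, but Col1a1 was listed at exactly 0 in GelMA 4W replicate 1 and Col3a1 in GelMA 4W replicates 1 and 3, where an abundant collagen at 0 can be a failed estimate.

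At 2 weeks 0 markers of these lists were called by limma, where 0.497% of all tested genes were. An unadjusted p under 0.05 was found for 1742 of all 12270 genes. Macrophage sums were 2475 to 2961 FPKM in MFN+GelMA 2W libraries, against 2918 to 3448 FPKM in GelMA 2W libraries, with 1 of 9 markers at an unadjusted p under 0.05. Giant cell and osteoclast sums were 353 to 507 FPKM in MFN+GelMA 2W libraries, against 274 to 318 FPKM in GelMA 2W libraries, with 4 of 7 at an unadjusted p under 0.05. Neutrophil sums were 11.3 to 53.2 FPKM in MFN+GelMA 2W libraries, against 3.28 to 10.2 FPKM in GelMA 2W libraries, with 2 of 4 at an unadjusted p under 0.05. The macrophage ranges thus overlapped, while the giant cell and neutrophil sums, like the enzyme sums, were higher in every MFN+GelMA library. Fibroblast sums were higher there too, at 28640 to 29820 FPKM in MFN+GelMA 2W libraries, against 15080 to 25230 FPKM in GelMA 2W libraries. The lowest sum was that of GelMA 2W replicate 3, and the largest log2 fold change of the list was 4.64, not called. Whether a failed collagen estimate, as may be at 4 weeks, lowered that sum was not tested. The part of these markers in the enzyme values was not tested.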

How the data were processed

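Ribosome-depleted total RNA of 12 rat tissue libraries was sequenced with a stranded kit, per the labels' protocols. The submitters' processing notes name cutadapt 1.9.3, HISAT2, Cuffdiff and the rn6 build. For the other tools the version, and for the counting the annotation and strand option, is not given in the sources used here. The authors deposited 1 table with FPKM per library, which was tested, and count-like values, not whole numbers, which are a signal used here only for depth. Loci are those of the table.

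Rows of one symbol were summed (22062 rows, 21797 genes). The test was limma 3.58.1 (R 4.3.3) on log2(FPKM + 1), fitting a mean for each of the 4 groups to all 12 libraries, with an intensity trend (8 residual and 3.28 prior degrees of freedom), two-sided, and Benjamini-Hochberg adjustment over the 12270 genes that reached 1 FPKM in 3 or more libraries. A call is an adjusted p under 0.05. The same fit was tested on simulated data. Contrasts were material at each time, time in each material, and their interaction. At this depth genes near 1 FPKM are the least precise.

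The genes and lists were chosen with earlier results of these data known. All named members are described, and from each further list up to 4 genes with the smallest unadjusted p at 4 weeks, of which 1 is not reported here. Edn1, Vegfa, Ddit4, Cited2 and Eno3 were named after their values were seen. Summed FPKM and family shares were not tested. Alternatives covered the filter, pseudocount, scaling, variance model, weights, replicate block, fold threshold and left-out libraries. RefSeq promoters are on GRCr8, so no coordinate was carried between builds.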

Additional observations from a re-analysis of the deposited data

Results flagged for a closer look

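The genes below are those whose material effect (MFN+GelMA minus GelMA, log2) differed between 4 and 2 weeks by limma's interaction test with an adjusted p under 0.05. Among the enzymes the difference was 1.68 for Hk3, 0.75 for Gpi, 1.15 for Pfkp and 0.70 for Aldoa. It was 0.74 for Pgk1, 0.89 for Pgam1, 1.14 for Eno1, 1.19 for Pkm and 0.86 for Ldha. It was 2.32 for the lactate exporter Slc16a3 and 1.54 for Ndrg1. Each was larger at 4 weeks. The least stable of the enzymes were Aldoa, Pgk1 and Ldha, with highest adjusted p-values over their alternatives of 0.102 for Aldoa and 0.0996 for Ldha, both without GelMA 4W replicate 1, and 0.164 for Pgk1 without the 3 libraries that stood apart. Without those 3 libraries the adjusted p was 0.0878 for Slc16a3, which was also lost in 6 fits that left out 1 library, and 0.0913 for Pkm.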

How the results depend on the processing

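Those of the 33 genes called with all libraries, and the called genes named from the further lists at 4 weeks, kept their direction in every alternative run. Genes not called did not always: without the 3 libraries that stood apart, Pfkm at 2 weeks was at -0.16 (0.28 with all), Hk1 at 2 weeks at -0.04 (0.04), Eno2 at 4 weeks at -0.01 (0.33), Slc16a1 at 4 weeks at 0.01 (-0.11) and Epas1 in GelMA over time at -0.15 (0.68). In all, 3 of the 33 genes turned sign at 2 weeks, 2 at 4 weeks, 2 in the interaction, 2 in MFN+GelMA over time and 10 in GelMA over time, none of them called in that comparison with all libraries. At 4 weeks, 16 of the 18 calls held in all 12 fits that left out 1 library and in every alternative except a log2 fold threshold of 1. The exceptions were Tpi1 and Ldhb. Counts of called genes that left out 1 library ran from 16 to 20 at 4 weeks (18 with all libraries). They ran from 0 to 1 at 2 weeks and in GelMA over time (0 with all), from 8 to 11 in MFN+GelMA over time (10), and from 6 to 14 in the interaction (11). Over all genes these fits called 2004 to 3317 at 4 weeks, 21 to 160 at 2 weeks and 9 to 290 in GelMA over time. They called 1463 to 2628 in MFN+GelMA over time and 920 to 1607 in the interaction. Without the 3 libraries that stood apart the counts were 23 at 4 weeks, 1 at 2 weeks, 10 in the interaction, 13 in MFN+GelMA over time and 1 in GelMA over time. Quantile normalization gave 1 at 2 weeks. Requiring a log2 fold change of at least 1 left 3 in MFN+GelMA over time, 6 in the interaction and 11 further hypoxia targets (17 without it), since that threshold removes smaller changes by construction. Elsewhere the cause was not tested.

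The replicate numbers were not treated as pairs, because only 2 of 18 correlations between same-numbered libraries were over 0.1 (-0.06 to 0.37). With the replicate block 17 genes were called at 4 weeks, 10 in the interaction and 10 in MFN+GelMA over time. The interaction could not be fitted on only the libraries compared, since it needs all 12. Scaling to equal sums outside the mitochondrial genome put the median log2 difference of all genes at 4 weeks at -0.06 (0.05 without it), and 17 genes were called there.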
